A study of Mus musculus with 8 samples.

Results

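The axon guidance ligands and receptors were taken as the protein-coding genes of the RefSeq table (build GRCm38/mm10) whose symbols name a semaphorin, plexin, neuropilin, Slit, Robo, ephrin, Eph receptor, netrin, netrin-G, Unc5 receptor or Dcc. There were 71 such genes among 21887 protein-coding genes, 37 of them ligands and 34 receptors. Chromatin of whole cerebellum had been immunoprecipitated with an antibody to histone H3 acetylated on lysine 9 (H3K9ac), which marks active promoters, and sequenced. The mice were C57BL/6 and 9 weeks old. The groups were 4 libraries from mice heterozygous for a 266Q knock-in allele, with 266 glutamines, of Atxn7, the gene of spinocerebellar ataxia type 7 (SCA7), and 4 libraries from wild type mice, called KI and WT below and numbered by replicate. The series calls the knock-in mice symptomatic and compares them with littermates. A gene counted as detected in a library where a deposited peak overlapped the 1 kb on either side of one of its ends, whatever its height.

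Growing axons and migrating neurons read these cues at the cell surface. Semaphorins act through plexins, with neuropilins as co-receptors for the secreted ones, Slits act through Robo receptors, and ephrins, which are membrane bound, act through Eph receptor tyrosine kinases. Netrins attract through Dcc and repel through Unc5 receptors. In the cerebellum these families are known for guiding granule cell migration and the wiring of climbing, mossy and parallel fibres, and several of them stay expressed at adult synapses.

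The lists of replicates 1 and 2 were long and their peaks broad in both genotypes, while those of replicates 3 and 4 were short and their peaks narrow. KI lists held 1266 to 11268 peaks and WT lists 1571 to 11409, and median widths were 132 to 1246 bp in KI and 134 to 1118 bp in WT. The lists hold no read counts, so the depth is unknown and no level of acetylation can be compared between libraries. For the tissue, 10 and 9 of 10 granule cell markers had a peak in KI replicates 1 and 2, and 10 and 7 in WT replicates 1 and 2. For Purkinje cell markers the counts were 3 and 4 of 10 in KI and 2 and 4 in WT, and Pcp2, Pcp4 and Car8 had no peak in any library. No microglial marker of 6 had a peak in any library, and of 6 vascular markers only Kdr had one, in KI replicate 3. A promoter marked in fewer cells and a promoter marked less in each cell cannot be told apart in such whole-tissue lists.

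Of the 71 axon guidance genes, 41 (57.7%) had a peak at a gene end in at least 1 library, against 45% of all protein-coding genes. In at least 5 libraries it was 13 (18.3%), against 11.2% of all. Peaks were found at 34, 31, 12 and 2 of them in KI replicates 1 to 4. In WT replicates 1 to 4 they were found at 30, 29, 9 and 2. As shares these were 47.9%, 43.7%, 16.9% and 2.82% in KI and 42.3%, 40.8%, 12.7% and 2.82% in WT. In each of the 8 libraries the share of the axon guidance genes was above that of all protein-coding genes, which was 39.1%, 36.2%, 10.4% and 0.896% in KI and 31.9%, 27.8%, 5.43% and 1.46% in WT. The mean share was 27.8 ± 21.6% in KI and 24.6 ± 19.9% in WT (SD, n = 4 each), a difference of 3.17 percentage points that is smaller than either SD. Its sign turned on single libraries: it was -3.52 points without KI replicate 1, -2.11 without KI replicate 2, -0.822 without WT replicate 3 and -4.11 without WT replicate 4. With lists cut to equal length the means were 9.15% in KI and 8.80% in WT, a difference of 0.352 points. Over all protein-coding genes the means were 21.7 ± 18.9% in KI and 16.6 ± 15.4% in WT (SD, n = 4 each). Within replicates 1 and 2 the means were 45.8% in KI and 41.5% in WT for the axon guidance genes, and 37.7% and 29.8% for all genes.

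**Figure D1:**
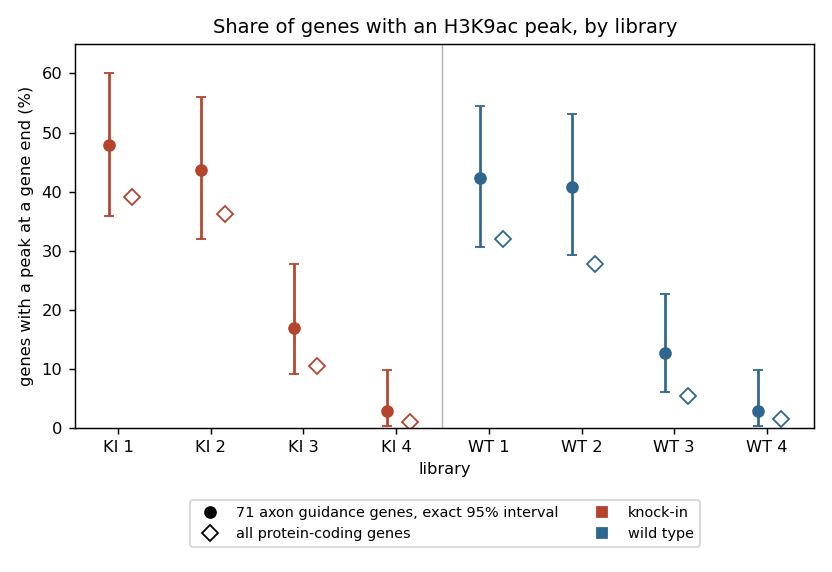
Share of genes with an H3K9ac peak within 1 kb of a gene end in each library (y axis, percent; x axis, KI 1 to 4, then WT 1 to 4). Filled circles are the 71 axon guidance genes with exact (Clopper-Pearson) 95% intervals, which cover counting error only, and open diamonds are all 21887 protein-coding genes. Every circle lies above its diamond, but only in WT 2 and WT 3 does the interval leave the diamond out. Replicates 3 and 4 lie far below replicates 1 and 2 in both genotypes.

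A common core carried the mark in every long list. Of the 71 genes, 23 (32.4%) had a gene-end peak in all 4 libraries of replicates 1 and 2, against 22.9% of all protein-coding genes. Another 17 had one in some of these libraries, and Dcc, with a peak in KI replicate 3 alone, had one in none of them. None of the 71 was found in both long KI lists and neither long WT list, and none the other way round. The same counts were not taken over all protein-coding genes, so this cannot be called particular to these genes. The 34 genes of KI replicate 1 and the 30 of WT replicate 1 shared 28, which is 82.4% of the first set and 93.3% of the second. The 12 genes of KI replicate 3 and the 9 of WT replicate 3 shared 7, or 58.3% and 77.8%. The pairs of genes in KI replicate 4 and in WT replicate 4 shared none. Those were Sema4d and Unc5b in KI, and Ntn1 and Ntn4 in WT. Sharing between libraries was not counted over all protein-coding genes either, so these shares cannot be called particular to axon guidance genes. With so few genes in each replicate 4 list, sharing none shows no difference between the genotypes.

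**Figure D2:**
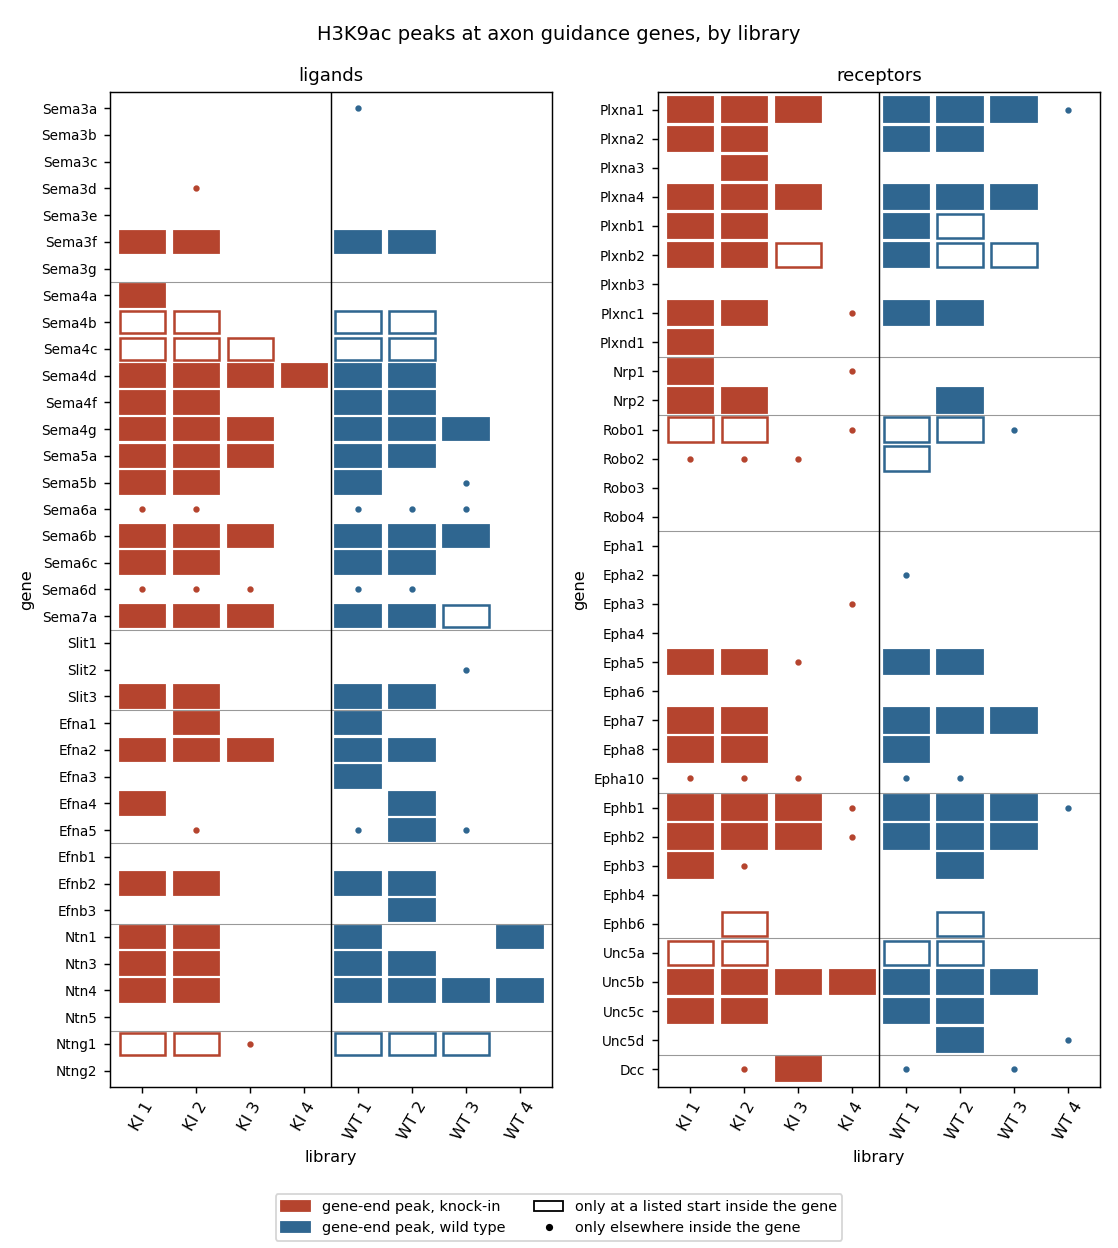
Each row is an axon guidance gene (ligands left, receptors right, families separated by lines) and each column a library, KI (red) left of WT (blue). Filled boxes mark a peak within 1 kb of a gene end, open boxes a peak only at a start site listed inside the gene, and dots a peak only elsewhere inside the gene. Secreted semaphorins and most EphA receptors are empty or nearly so, whereas most transmembrane semaphorins and plexins have filled boxes in replicates 1 and 2, and Robo1, Ntng1, Unc5a, Sema4b and Sema4c have open boxes and no filled one.

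Among the ligands, secreted and membrane-bound semaphorins differed in how many were marked. Of the 7 secreted semaphorins only Sema3f, which signals through neuropilin-2, had a gene-end peak, in replicates 1 and 2 of each genotype. Sema3a, Sema3b, Sema3c, Sema3d, Sema3e and Sema3g had none in any library. Of the 13 transmembrane or membrane-anchored semaphorins 9 had a peak, with 9, 8, 5 and 1 in KI replicates 1 to 4 and 8, 7, 2 and 0 in WT. Sema4d, Sema4g and Sema6b were each found in 6 libraries, Sema5a and Sema7a in 5, Sema4f and Sema6c in 4, Sema5b in 3 and Sema4a in 1. Peaks of Sema7a, the semaphorin held by a lipid anchor (chromosome 9, 57939596 to 57962865), were high within the lists, with score percentiles of 94.6, 98.6 and 84.9 in KI replicates 1 to 3 and 98.96 and 90.1 in WT replicates 1 and 2. A score percentile is the share of a list's peaks with a lower deposited score. Those of Sema5a (chromosome 15, 32244813 to 32696341) were low, at 18.4, 42.7 and 22.5 in KI replicates 1 to 3 and 6.78 and 22.2 in WT replicates 1 and 2.

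Slit3 was the Slit with a peak, in replicates 1 and 2 of each genotype, 1416 and 1184 bp wide in KI and 1598 and 1416 bp wide in WT. Slit1 and Slit2 had no gene-end peak in any library. All 5 ephrins-A had a peak somewhere, but mostly in few libraries. Efna2 (chromosome 10, 80179482 to 80190010) had one in KI replicates 1 to 3 and WT replicates 1 and 2, Efna1 and Efna4 in 1 library of each genotype, and Efna3 and Efna5 in 1 WT library each. Efna1, Efna3 and Efna4 lie close together on chromosome 3, between 89271730 and 89338028. Of the ephrins-B, Efnb2 was found in replicates 1 and 2 of each genotype, Efnb3 in WT replicate 2 and Efnb1 in none. The peak of Efnb3 also overlapped the window of Wrap53.

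Netrins were marked in most members. Ntn4, whose product is built like laminin chains and binds laminins, was found in 6 libraries. Ntn3 was found in replicates 1 and 2 of each genotype. Ntn1, the classical midline attractant, had a peak in KI replicates 1 and 2 and WT replicates 1 and 4. In WT replicate 4 that peak was 135 bp wide. Ntn5 had none. At Ntn3 a second set of peaks at the far gene end, in KI replicates 1 and 2 and WT replicate 1, also overlapped the window of Tbc1d24. The membrane-anchored netrins Ntng1 and Ntng2, which bind partners other than Dcc, had no gene-end peak.

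On the receptor side 8 of 9 plexins had a gene-end peak, in 7, 7, 2 and 0 genes in KI replicates 1 to 4 and 6, 4, 2 and 0 in WT. Plxna1 (chromosome 6, 89316313 to 89362613) and Plxna4 (chromosome 6, 32144543 to 32588192), which pair with neuropilins, were found in replicates 1 to 3 of each genotype. Their peaks ranked high, at percentiles 98.7, 98.5 and 72.9 in KI and 94.7, 89.2 and 82.6 in WT for Plxna1, and 90.8, 93.8 and 92.1 in KI and 97.3, 79.3 and 74.5 in WT for Plxna4. The peaks of Plxna1 also overlapped the window of Gm40415. Plxna2 and Plxnc1 were found in 4 libraries, Plxnb1 and Plxnb2 in 3 (at Plxnb1 by only 31 and 28 bp of the window in KI and 36 bp in WT), Plxna3 and Plxnd1 in 1 KI library and Plxnb3 in none. Peaks of Plxnb2 reached the window of Dennd6b as well. At their listed starts, which lie inside the genes, Plxnb1 had a peak in 2 KI and 2 WT libraries and Plxnb2 in 3 KI and 3 WT libraries. Of the neuropilins, Nrp2 had a peak in KI replicates 1 and 2 and WT replicate 2, and Nrp1 in KI replicate 1 alone.

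EphA and EphB receptors held 3 genes with a peak each, out of 9 and 5. Ephb1 (chromosome 9, 101922128 to 102354693) and Ephb2 (chromosome 4, 136647536 to 136836326) were found in replicates 1 to 3 of each genotype, and Ephb3 in KI replicate 1 and WT replicate 2. The widest peak of Ephb1 measured 2851, 2819 and 240 bp in KI replicates 1 to 3 and 3022, 2222 and 142 bp in WT replicates 1 to 3. In each genotype the peaks of the first 2 libraries were far wider than that of the third. Ephb4 and Ephb6 had none. Epha7 (chromosome 4, 28813066 to 28967503) was found in KI replicates 1 and 2 and WT replicates 1 to 3, Epha5 in replicates 1 and 2 of each genotype and Epha8 in KI replicates 1 and 2 and WT replicate 1. Epha1, Epha2, Epha3, Epha4, Epha6 and Epha10 had no gene-end peak in any library. A peak of Epha5 also overlapped the window of Gm42163.

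No Robo receptor of 4 had a gene-end peak. Of the netrin receptors, Unc5b (chromosome 10, 60762594 to 60831581) was found in 7 libraries, more than any other axon guidance gene, and lacked a peak in WT replicate 4. Unc5c, the gene of the rostral cerebellar malformation mouse, was found in replicates 1 and 2 of each genotype, with peaks of up to 3464 and 2001 bp in KI and 2298 and 1955 bp in WT. Unc5d had a peak in WT replicate 2 and Unc5a none at its ends. The Dcc peak in KI replicate 3 was 223 bp wide at score percentile 7.84.

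Taken by role, the ligands and the receptors were marked about equally in KI and not quite so in WT. Ligand counts of 37 were 17, 16, 6 and 1 in KI replicates 1 to 4 and 17, 16, 3 and 2 in WT. Receptor counts of 34 were 17, 15, 6 and 1 in KI and 13, 13, 6 and 0 in WT. As means over replicates 1 and 2 these are 44.6% in KI and 44.6% in WT for ligands, and 47.1% in KI and 38.2% in WT for receptors. Most of the receptor difference lay in plexins, at 77.8% in KI and 55.6% in WT, and neuropilins, at 75% in KI and 25% in WT of 2 genes. For plexins it rested in part on where the window ends, since Plxnb1 and Plxnb2 had no gene-end peak in WT replicate 2 but had one at a listed start there. The difference was not tested, and over all protein-coding genes KI stood higher too, at 37.7% against 29.8%.

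Found in at least 6 libraries were Sema4d, Sema4g, Sema6b, Plxna1, Plxna4, Ephb1, Ephb2, Ntn4 and Unc5b. The promoter sequences given here are from the 6 of them with a peak over a listed start, shown because each carried the mark in replicates 1 to 3 of at least 1 genotype. They run from 250 bases before to 50 after the start site, as RefSeq places it on GRCm38.p6, are written 5′ to 3′ on the gene's strand, and have each CG dinucleotide in capitals. Plxna1 and Plxna4 had no entry in the promoter table used, and the peaks of Sema4d lay away from its listed starts.
Ntn4, chr10:93640799-93641098, plus strand: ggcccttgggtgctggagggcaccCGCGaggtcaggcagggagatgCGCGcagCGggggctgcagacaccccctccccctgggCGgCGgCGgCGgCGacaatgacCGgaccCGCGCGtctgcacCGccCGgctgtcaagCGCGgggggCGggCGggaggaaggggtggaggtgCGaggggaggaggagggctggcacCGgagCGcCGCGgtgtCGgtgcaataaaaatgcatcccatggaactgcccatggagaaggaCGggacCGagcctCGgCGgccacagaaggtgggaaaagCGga
Unc5b, chr10:60831532-60831831, minus strand: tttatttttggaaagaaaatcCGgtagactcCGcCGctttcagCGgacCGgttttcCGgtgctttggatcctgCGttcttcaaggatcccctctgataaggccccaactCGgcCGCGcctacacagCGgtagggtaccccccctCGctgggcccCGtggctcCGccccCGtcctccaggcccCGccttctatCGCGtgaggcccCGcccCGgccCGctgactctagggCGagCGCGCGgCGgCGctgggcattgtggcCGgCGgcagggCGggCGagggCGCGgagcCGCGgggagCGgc
Ephb1, chr9:102354644-102354943, minus strand: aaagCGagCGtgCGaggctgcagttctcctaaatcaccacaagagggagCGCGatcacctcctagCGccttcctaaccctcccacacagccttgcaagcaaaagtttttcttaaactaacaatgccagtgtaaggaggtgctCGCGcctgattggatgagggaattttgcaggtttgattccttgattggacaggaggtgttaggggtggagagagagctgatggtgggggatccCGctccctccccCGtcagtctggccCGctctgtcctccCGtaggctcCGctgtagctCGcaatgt
Ephb2, chr4:136835963-136836262, minus strand: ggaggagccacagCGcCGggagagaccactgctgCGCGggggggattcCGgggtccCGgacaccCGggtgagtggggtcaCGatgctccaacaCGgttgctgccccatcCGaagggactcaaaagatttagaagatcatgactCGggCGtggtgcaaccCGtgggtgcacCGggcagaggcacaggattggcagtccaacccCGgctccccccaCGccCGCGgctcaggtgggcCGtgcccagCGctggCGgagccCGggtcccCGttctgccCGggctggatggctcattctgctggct
Sema4g, chr19:44989094-44989393, plus strand: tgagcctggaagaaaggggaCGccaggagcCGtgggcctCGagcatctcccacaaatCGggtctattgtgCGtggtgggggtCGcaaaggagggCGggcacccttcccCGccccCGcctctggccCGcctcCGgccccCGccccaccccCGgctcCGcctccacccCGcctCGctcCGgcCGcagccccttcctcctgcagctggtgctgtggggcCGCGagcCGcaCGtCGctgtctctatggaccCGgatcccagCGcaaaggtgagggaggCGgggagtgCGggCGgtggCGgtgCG
Sema6b, chr17:56140294-56140593, minus strand: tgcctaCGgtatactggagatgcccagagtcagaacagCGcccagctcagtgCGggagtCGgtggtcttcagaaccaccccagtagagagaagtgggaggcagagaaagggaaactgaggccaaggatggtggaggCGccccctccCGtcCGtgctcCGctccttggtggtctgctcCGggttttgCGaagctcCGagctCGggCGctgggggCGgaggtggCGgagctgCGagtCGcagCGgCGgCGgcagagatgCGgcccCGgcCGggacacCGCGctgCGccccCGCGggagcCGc
They held 31 CG dinucleotides at Ntn4, 36 at Unc5b, 14 at Ephb1, 24 at Ephb2, 30 at Sema4g and 29 at Sema6b. Ephb1, with 55.7% G and C, was the least rich of the 6, and Sema4g, with 73.3%, the richest.

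The question of the series was how the mark differs between symptomatic KI and WT cerebellum. It was put to each gene by a two-sided conditional exact test. The test allows for how often each library had a peak over all protein-coding genes. This also absorbs any difference between the genotypes that all genes share, so the test can show only gene-specific differences. No axon guidance gene passed. The test called 0 of 9826 protein-coding genes (0%) after Benjamini-Hochberg adjustment, and 0 of the 41 axon guidance genes it could test among them. Fisher's exact test called 0 as well, but with 4 libraries per genotype its p can hardly be small enough to pass this adjustment. At an unadjusted p under 0.05 the conditional exact test had 90 of the 9826 genes (0.916%) and Fisher's exact test 0. Among the axon guidance genes this was Ntn4 alone. The smallest p that Fisher's test gave was 0.143. The conditional exact p is computed under fixed odds for each library and treats the libraries as independent, so it measures no spread between animals. Whether each replicate was its own animal is not in the labels.

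In numbers of libraries, 15 of the 71 genes (21.1%) were found in more KI than WT libraries, against 21.6% of all protein-coding genes. The reverse held for 6 (8.45%), against 5.23% of all genes. Another 20 were found equally often and 30 in no library. The 15 held 5 transmembrane or membrane-anchored semaphorins, 4 plexins and both neuropilins. The 6 were Efna3, Efna5, Efnb3, Epha7, Ntn4 and Unc5d. With single libraries left out these counts shifted: without KI replicate 1 they were 3 and 25, and without KI replicate 2 they were 5 and 24. Without KI replicate 3 they were 10 and 12, and without WT replicates 1 or 2 they were 33 and 4 or 33 and 2. Leaving out a library sets unequal numbers of libraries against each other, and the counts were not rescaled. A gene found equally often then moves to the other genotype whenever a library that holds it is left out. Much of this shift is thus built in and does not measure stability. With lists cut to equal length the counts were 7 and 6.

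Ntn4 and Sema4d were the axon guidance genes that differed by 2 libraries. At Ntn4 (chromosome 10, 93641049 to 93745972), peaks covered 1632, 1677, 0 and 0 bp of the windows in KI replicates 1 to 4 and 1677, 1662, 520 and 136 bp in WT replicates 1 to 4. The long lists of the genotypes overlapped, and the difference lay in replicates 3 and 4, where no KI library and each WT library had a peak. Its conditional exact p was 0.0283 and its adjusted p was 1.00. In WT replicate 3 the peaks ran from -288 to -105, from 172 to 362 and from 438 to 582 bp relative to the start site, and in WT replicate 4 from 131 to 266 bp. The unadjusted p rested on a few short lists: without KI replicate 3 the conditional exact p was 1.00, and without WT replicate 4 it was 0.195. Over all genes, 14 were found in 2 KI and 4 WT libraries.

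Sema4d, a transmembrane semaphorin and ligand of plexin-B1 (chromosome 13, 51685529 to 51793678), went the other way. Peaks covered 1560, 1569, 309 and 137 bp in KI replicates 1 to 4 and 1476, 1082, 0 and 0 bp in WT. Here each KI library had a peak and the short WT lists had none. The conditional exact p was 0.0907 and the adjusted p 1.00, and 42 genes of all were found in 4 KI and 2 WT libraries. Within the long lists the peak ranked lower in KI, at percentiles 62.4 and 49.9, than in WT, at 93.5 and 84.5. With lists cut to equal length Sema4d was found in more WT libraries, with a conditional exact p of 0.519. Its peaks lay at the gene end, and those of the long lists ran from -37601 to -35682 bp relative to the nearest of its 3 listed start sites.

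Peaks at Unc5b covered 1243, 1570, 407 and 184 bp in KI replicates 1 to 4 and 1288, 1451, 315 and 0 bp in WT. The long lists of the genotypes overlapped, KI was higher in replicate 3 and the only one with a peak in replicate 4, and the conditional exact p was 0.385. Peaks at Epha7 covered 993, 1148, 0 and 0 bp in KI and 1095, 848, 330 and 0 bp in WT, with a conditional exact p of 0.222. Its long lists overlapped between the genotypes, and the one short list with a peak was WT replicate 3. The other 9 genes found in at least 5 libraries had a conditional exact p of 1.00.

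**Figure D3:**
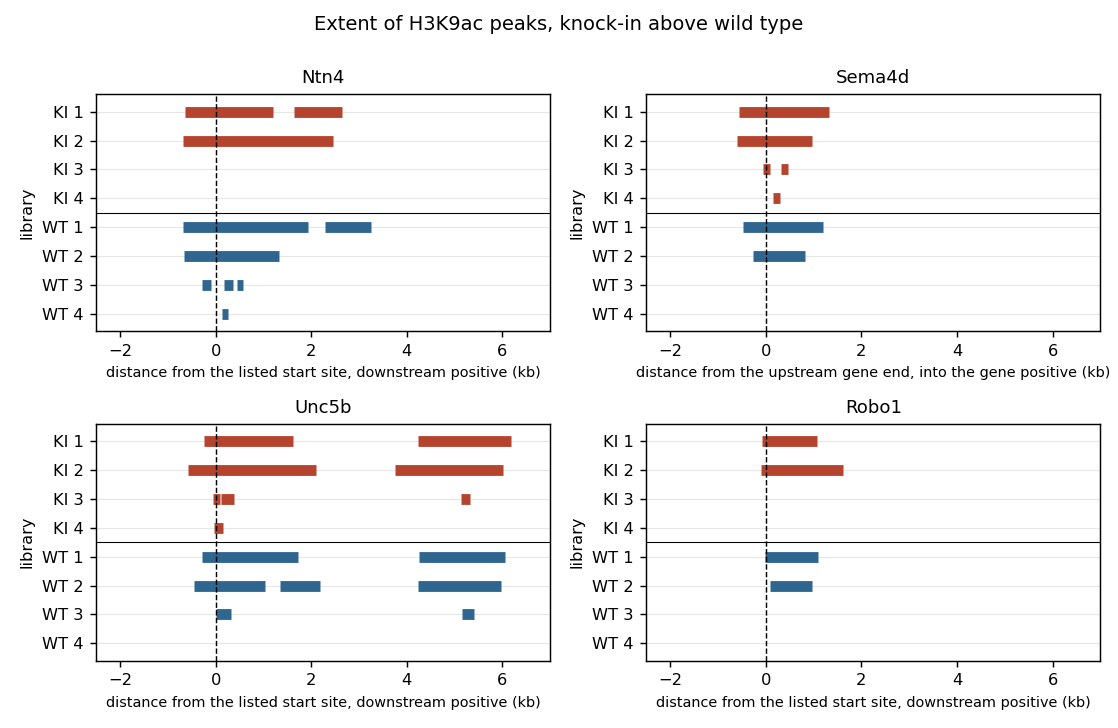
Extent of each H3K9ac peak at 4 genes, KI libraries (red) above WT libraries (blue). The x axis is the distance in kb from the listed start site, or for Sema4d from the upstream end of the gene. Ntn4 has no peak in KI 3 and KI 4, Sema4d none in WT 3 and WT 4, Unc5b a second set of peaks inside the gene, and Robo1 peaks near its listed start in replicates 1 and 2 only.

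The covered length at the 13 genes found in at least 5 libraries followed the library more than the genotype. At Plxna1 it was 1665, 2001, 461 and 0 bp in KI replicates 1 to 4 and 1407, 1388, 259 and 0 bp in WT. At Plxna4 it was 1589, 1382, 511 and 0 bp in KI and 1428, 1527, 173 and 0 bp in WT. The long lists overlapped between genotypes at Plxna4 but not at Plxna1, where both KI values were higher. Ephb2 is an EphB receptor of excitatory synapses, and its peaks covered 1913, 1869, 338 and 0 bp in KI and 1649, 1867, 164 and 0 bp in WT. Peaks at Ephb1 covered 1391, 1437, 405 and 0 bp in KI and 1619, 1144, 280 and 0 bp in WT. KI replicate 3 was above WT replicate 3 at both. The long lists of the genotypes overlapped at Ephb1. At Ephb2 both KI values were higher, but KI replicate 2 and WT replicate 2 were nearly equal, at 1869 and 1867 bp.

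For the membrane-bound semaphorins and Efna2 the same held in part. Peaks at Sema6b covered 1481, 1112, 280 and 0 bp in KI replicates 1 to 4 and 1305, 1082, 143 and 0 bp in WT. Peaks at Sema4g covered 866, 917, 119 and 0 bp in KI and 858, 733, 206 and 0 bp in WT. Peaks at Sema7a covered 1023, 970, 383 and 0 bp in KI and 1116, 922, 0 and 0 bp in WT. WT replicate 3 also had a peak at Sema7a, beyond the window, 655 to 811 bp past the listed start, so that 3 KI and 3 WT libraries had one at that start. Among these 3 the long lists of the genotypes overlapped at Sema6b and Sema7a. At Sema4g both KI values were higher, but KI replicate 1 and WT replicate 1 were nearly equal. Bases outside the windows do not count here. The whole peak of Sema4g was widest in WT replicate 1, at 1315 bp, against 1120 and 1032 bp in KI replicates 1 and 2. Peaks at Sema5a covered 1371, 1356, 150 and 0 bp in KI and 944, 746, 0 and 0 bp in WT. Peaks at Efna2 covered 1425, 1336, 198 and 0 bp in KI and 922, 922, 0 and 0 bp in WT. At both of these genes the long KI lists stood above the long WT lists and the third KI list had a peak that the third WT list lacked. These lengths were not tested. Beside them, the median width of peaks at all gene ends was 1304 and 1268 bp in KI replicates 1 and 2 and 1278 and 1105 bp in WT.

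**Figure D4:**
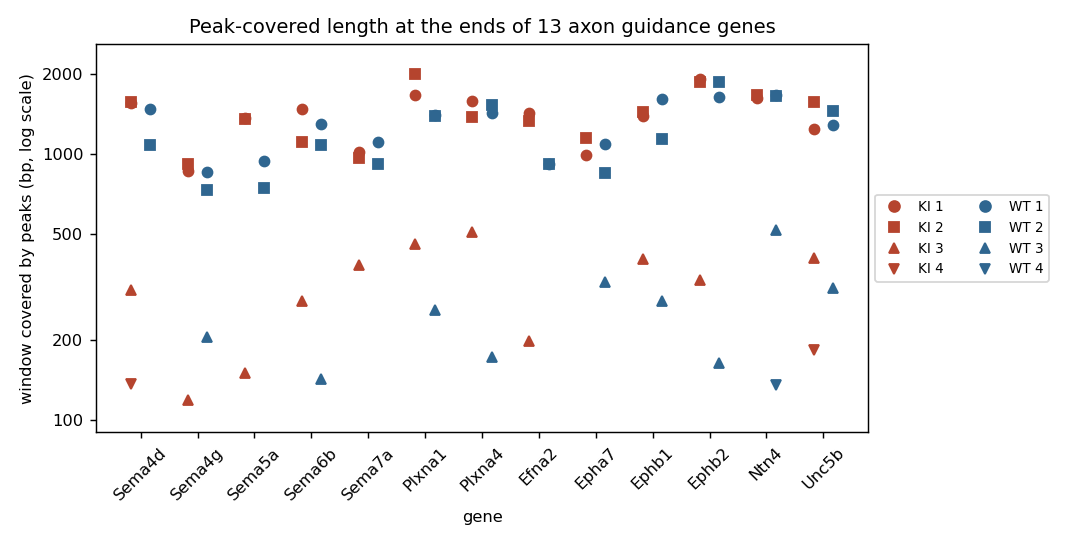
Length of the gene-end windows covered by H3K9ac peaks (y axis, bp, log scale) at the 13 axon guidance genes found in at least 5 libraries, with KI libraries (red) left of WT libraries (blue) at each gene. Libraries without a peak are not drawn. Circles and squares (replicates 1 and 2) lie between 733 and 2001 bp and triangles (replicates 3 and 4) between 119 and 520 bp in both genotypes.

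The peaks at axon guidance genes ranked about as high in the long lists as those at all gene ends. Their median score percentile was 63.7 and 60.5 in KI replicates 1 and 2 and 66.7 and 63.0 in WT, against 56.4 and 60.9 in KI and 64.8 and 56.5 in WT for all gene-end peaks. The only library of these 4 where they stood lower was KI replicate 2. In replicate 3 they stood higher, at 71.5 against 55.6 in KI and 74.5 against 54.6 in WT, and in replicate 4, with 2 peaks each, lower, at 42.4 against 44.7 in KI and 32.2 against 50.4 in WT. In replicates 1 and 2 their median width was 1618 and 1346 bp in KI and 1318 and 1082 bp in WT. In replicate 3 it was 219.5 bp in KI, against 154 bp for all gene ends, and 173 bp in WT, against 151 bp.

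Looking only at gene ends missed several long genes whose start site lies inside the annotated span. Of the 30 axon guidance genes without a gene-end peak, 15 had a peak inside the gene in at least 1 library, and 7 of those had one within 1 kb of a listed start site. Robo1, a Slit receptor, had a peak at its listed start in replicates 1 and 2 of each genotype, from -83 to 1076 and from -106 to 1615 bp relative to the start in KI and from -16 to 1083 and from 95 to 956 bp in WT. These peaks were weak within their lists, at score percentiles 20.5 and 38.4 in KI and 11.5 and 0.659 in WT. Unc5a, a netrin receptor, had broad and strong ones, 2690 and 2414 bp wide in KI and 2866 and 1964 bp wide in WT, at percentiles 87.6 and 84.6 in KI and 80.6 and 89.2 in WT. The peak was present in every long list at both genes.

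Ntng1 had a peak at its listed start in KI replicates 1 and 2 and WT replicates 1 to 3, and Sema4c in KI replicates 1 to 3 and WT replicates 1 and 2. Sema4b had one in replicates 1 and 2 of each genotype, and Ephb6, an Eph receptor without kinase activity, in replicate 2 of each. The seventh, Robo2, had one in WT replicate 1. Some recurrent peaks inside genes lay away from any listed start, or in a gene with none listed. In Sema6d a region of chromosome 2 at 124609186 to 124611760 held a peak in KI replicates 1 to 3 and WT replicates 1 and 2, from -44395 to -41821 bp relative to the nearest listed start. In Epha10, a receptor without kinase activity, one at 124894016 to 124895589 on chromosome 4 was found in replicates 1 and 2 of each genotype, 12231 to 13804 bp past the listed start. Sema6a, known for its part in granule cell migration, has no listed start in the table used and had a region inside the gene in KI replicates 1 and 2 and WT replicates 1 to 3, 2342 bp from the nearer gene end. In Unc5b a second region, 3746 to 6172 bp past the start, held a peak in replicates 1 to 3 of each genotype. In all, 10 regions inside axon guidance genes were held by 4 or more libraries, and 52 of 76 were held by 1 library only.

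With any listed start site in place of the gene ends, 61 of the genes could be placed. Their mean share with a peak was then 31.1% in KI and 29.9% in WT, with 10 genes found in more KI and 6 in more WT libraries, a setting added after the data had been seen. Among the 34 genes with a gene-end peak and a listed start, 33 had the peak at the end where transcription starts and 3 at the far end.

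Around the start site the peaks lay mostly downstream. In the long lists the peak at a listed start of an axon guidance gene ran at the median from -438 to 1117 bp in KI replicate 1 and from -516 to 1124 bp in KI replicate 2. In WT replicates 1 and 2 it ran from -423.5 to 813 bp and from -288 to 877.5 bp. Over all protein-coding genes the same medians were -440 to 885 and -416 to 859.5 bp in KI and -412 to 885 and -325 to 803 bp in WT. The narrow peaks of the short lists mostly did not cover the start: 3 of 15 did in KI replicate 3 and 1 of 14 in WT replicate 3, and their median centres lay 243.5 bp downstream in KI and 306.75 bp downstream in WT. For all genes 16.0% did in KI replicate 3 and 14.1% in WT replicate 3.

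Start sites of axon guidance genes that carried a peak were rich in CG dinucleotides. Over the 77 listed start sites, 44 had a peak within 1 kb in at least 1 library, and their 300 bases held a median of 27 CG dinucleotides and 68.5% G and C. The 33 without one held a median of 8 and 58%. For all protein-coding genes the medians were 24 at 9730 starts with a peak and 5 at 11533 without. The GC box, searched as GGGCGG on both strands, was present at 36 of the 44 starts (81.8%) and 18 of the 33 (54.5%), against 70.2% and 25.9% for all genes and 46.2% of all listed promoters. A TATA motif, searched as TATAAA on both strands, was present at 1 of the 44 (2.27%) and 1 of the 33 (3.03%), against 5.35% and 18.7% for all genes and 12.6% of all listed promoters. Exceptions stood on both sides. Sema3c, Slit2 and Sema4b's first start held 42, 30 and 26 CG dinucleotides and no peak, and Sema4f, with 7, had a peak in 4 libraries.

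**Figure D5:**
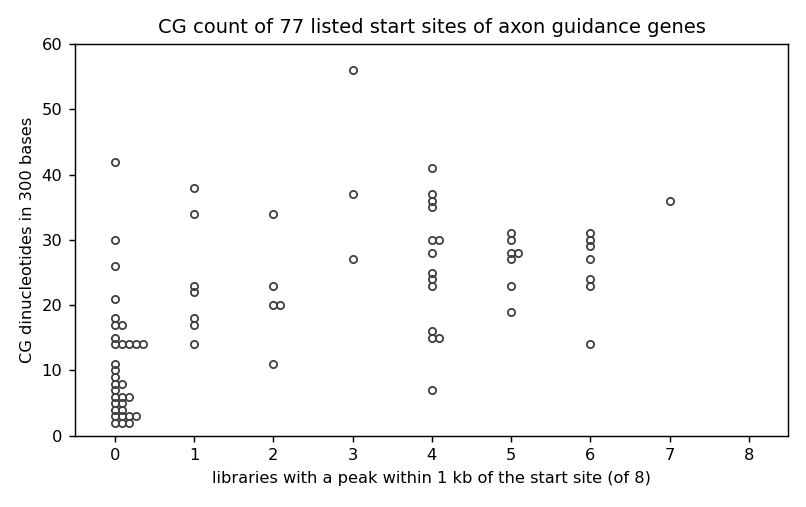
CG dinucleotides in the 300 bases around each of 77 listed start sites of axon guidance genes (y axis, count) against the number of the 8 libraries with an H3K9ac peak within 1 kb of that start (x axis; points of equal value are set side by side). Starts without a peak mostly hold few CG dinucleotides, with a median of 8, and starts with a peak have a median of 27.

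The other pathway genes listed here were marked more widely than the ligands and receptors themselves. Of 30 further surface molecules, 24, 22, 7 and 0 had a gene-end peak in KI replicates 1 to 4 and 19, 20, 4 and 1 in WT. Of 49 cytoplasmic partners, 39, 40, 13 and 1 had one in KI and 37, 34, 7 and 0 in WT. Over both lists 67 of 79 (84.8%) had a peak in at least 1 library, against 45% of all protein-coding genes. The test called 0 of these 67, as it called 0 of all 9826 genes tested. Of the 67, 0 had an unadjusted conditional exact p under 0.05, against 0.916% of the 9826. The lists were chosen with earlier results of these data known, so the contrast describes the listed genes and not the pathway as a whole. The smallest values were 0.222 for Rgma, a repulsive guidance molecule, and for Gsk3b, a kinase that controls microtubules, each in 2 KI and 3 WT libraries. Fyn, a kinase downstream of several guidance receptors, was found in 4 KI and 3 WT libraries, with a conditional exact p of 0.385. Draxin, L1cam, Limk2 and Pak4 each had a peak in 2 KI and 0 WT libraries and a conditional exact p of 0.501. For Draxin, L1cam and Limk2 the libraries were KI replicates 1 and 2, and for Pak4 KI replicates 1 and 3. Cdon, a surface co-receptor of hedgehog signalling, was found in 3 KI and 2 WT libraries, with a conditional exact p of 1.00.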

How the data were processed

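The authors deposited 1 peak list per library, with the position and a score of each peak. Peaks were called with MACS in Galaxy, per the file headers, and Bowtie2 and build mm10 are named in the submitters' processing notes. Not given in the sources used here were the MACS version, its settings and any input control. The scale of the deposited score is not stated, and here it only ranked peaks of the same list. Read depth is unknown and list lengths differ, so levels were not compared between libraries.

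Groups and replicate numbers came from the sample titles. A negative start, seen in 15 peaks, was moved to 0. Gene positions came from a RefSeq table and start sites and promoter sequences from RefSeq promoter windows, both of GRCm38.p6. Of the 71 genes, 61 had a listed start. A peak had to overlap a window by 1 bp. Each gene was tested by a two-sided conditional exact test of how many of its libraries with a peak were knock-in, under library odds fitted by a Rasch model over all protein-coding genes (Python 3.11.15, numpy 2.4.6, scipy 1.17.1), with Benjamini-Hochberg adjustment over genes found in 1 to 7 libraries and a threshold of 0.05. It was tested on simulated data. Other windows, overlaps, list lengths, tests and left-out libraries were tried as alternatives. Members and lists were chosen with earlier results of these data known. Named in full were members in at least 5 libraries, those that differed by 2 or more libraries or had an unadjusted p under 0.05, up to 3 per family and 4 genes per pathway list. Sequences were printed for members in at least 6 libraries.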

Additional observations from a re-analysis of the deposited data

Results flagged for a closer look

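For 5 genes a peak stood outside the gene-end windows that the comparison used. Without any gene-end peak, Sema4b had a peak at a start site listed inside the gene in 4 libraries, Sema4c in 5, Robo1 in 4, Ntng1 in 5 and Unc5a in 4. They were singled out because the signal lies outside the main measurement. No library without the antibody was used here, so the background of such peaks was not tested.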

How the results depend on the processing

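The conditional exact test called 0 protein-coding genes and 0 axon guidance genes under all alternatives, except that without wild type replicate 2 it called 1 gene, Lrrc74b, which is no axon guidance gene (leaving out each library gave 0 to 1 gene and 0 to 0 axon guidance genes). Windows of 500 bp or 3 kb, the start end only, an overlap of 100 bp, and, added after seeing the data, listed start sites, whole genes and replicates 1 and 2 alone each gave 0 and 0. Fisher's exact test gave 0 and 0 too, but could hardly have done otherwise with 4 libraries per genotype. The replicate block also gave 0 and 0. It is a different exact test, in which only pairs of same-numbered libraries that differ count. Ntn4 had a p of 0.130 in this block test. Its conditional exact p was 0.497 with lists of equal length, 0.0573 over the whole gene and 0.0281 to 1.00 with 1 library left out. Its adjusted p was 1.00 throughout. Same-numbered libraries correlated at 0.0464, 0.112, 0.135 and 0.401 in their deviations from the group means. Knock-in replicates 2, 3 and 4 each correlated best with the wild type library of the same number. For knock-in replicate 2 the margin was small, with 0.100 for wild type replicate 1. Knock-in replicate 1 correlated best with wild type replicate 2, also by a small margin (0.0529). Whether the numbers pair libraries is thus not settled. The labels name no shared batch, so the main test held no block. Genes found in more knock-in libraries numbered 7 with lists of equal length, beside 6 in more wild type libraries, and 3 to 33 with 1 library left out. Those found in more wild type libraries numbered 11 over the whole gene, and 2 to 25 with 1 library left out. With 1 library left out these counts compare unequal numbers of libraries, so much of both ranges is built in. The difference in mean share was -4.11 to 11.5 percentage points with 1 library left out, and 0.352 with lists of equal length. Of 468 repeats of a named gene's p, 1 changed direction: Sema4d, with a conditional exact p of 0.519 in lists of equal length. The cause was not tested. Only a switch from one genotype to the other counted, so genes found equally often in both could not change direction. This count thus does not measure how stable the directions were. Read depth is unknown, so how small a change these lists could show is unknown.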
